A study of Mus musculus with 3 samples.

Results

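The 10 genes described here make, break down, export or sense 2 signalling lipids, sphingosine-1-phosphate (S1P) and lysophosphatidic acid (LPA). They were Enpp2, Plpp3, Plpp1, Sphk1, Sphk2, Sgpl1, Spns2, S1pr2, S1pr3 and Lpar1, taken by their symbols from the 51912 genes of the count tables. No measured value entered that step, but the list was chosen with earlier results of these data known. Each gene was followed across lymph node (LN) stromal cells that were told apart by counts of 5 other genes.

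S1P and LPA are single-chain lipids that act outside the cell through G protein-coupled receptors. Sphingosine kinases make S1P inside the cell, a transporter carries it out, and a lyase or phosphatases remove it. LPA is made mostly outside the cell by a secreted lysophospholipase and is removed by lipid phosphatases on the cell surface. In the LN, S1P is kept low in the tissue and high in lymph, which guides lymphocytes out of the node, and S1P is also sensed by B cells inside follicles. LPA made near stromal cells is known to act on lymphocyte motility.

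The cells came from C57BL/6 mice whose genotype is labelled CXCL13-TdTomato+. The mice carry a transgene of Cxcl13-driven Cre and the red protein TdTomato (Cxcl13-Cre/tdTomato), used to sort reticular cells of the follicle, where the chemokine CXCL13 is made. Live LN cells positive for podoplanin and TdTomato and negative for CD31 and CD45 were sequenced with the 10x Genomics 3' kit in 3 libraries. All mice had received antibody against a fluorescent antigen and then the antigen in alum, which forms antigen-immune complexes (antigen-ICs). For the 2 libraries called 2-IC this was done 2 times, with the last antigen-IC 24 h and the first 7 days before the cells were taken. For the library called 1-IC it was done 1 time, 24 h before. LNs of several mice were pooled for a condition, and the sources used here give neither which mice entered which library nor the age of the mice. The short descriptions of the 2-IC libraries disagree with each other, so the groups follow the sample titles.

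Of 5486 barcodes, 2243 were retained after the study's filters, with 1526 in 2-IC replicate 1, 391 in 2-IC replicate 2 and 326 from 1-IC mice. Their median depth was 4700.5, 14732 and 5979 unique molecular identifiers (UMIs, each standing for 1 RNA molecule). Stromal types were gated by raw UMIs of 1 gene each, and the gates were ordered for the follicle. The Cr2 gate took barcodes whatever their Madcam1 and Tnfsf11, and the Madcam1 gate took barcodes without Cr2 whatever their Tnfsf11. Any other barcode that passed more than 1 gate was left out. Tnfsf11 was thus found in 81.4% ± 19.3 of Madcam1 barcodes and 15.4% ± 1.97 of Cr2 barcodes, and Madcam1 in 55.9% ± 8.55 of Cr2 barcodes. The Cr2 gate (at least 1 UMI, the complement receptor of follicular dendritic cells, FDCs) held 190 barcodes. The Madcam1 gate (at least 2 UMIs, marginal reticular cells, MRCs) held 42, the Tnfsf11 gate (at least 1 UMI, the RANKL gene, interfollicular reticular cells, IFRCs) 237, the Fmod gate (at least 1 UMI, T-B border reticular cells, TBRCs) 144 and the Inmt gate (at least 2 UMIs, medullary reticular cells, MedRCs) 475. The remaining 1155 retained barcodes passed none or were left out. Levels below are UMIs of a gene per 1000000 UMIs (CPM) over all barcodes of a gate summed within a library, so that n is 3 libraries in every mean ± SD. CPM of a 3' kit is not corrected for gene length, and levels are compared between gates and not between genes.

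Marker genes of the stromal types followed the gates in part. Each list of a stromal type held the gene of its own gate, so part of this was fixed by the gating. The summed FDC markers reached 17179 to 27484 CPM in the Cr2 gate and 17104 to 21718 CPM in the Madcam1 gate, against at most 8947 CPM in the others. Most of this sum was Clu, at 20060 and 17981 CPM on average in these 2 gates, while other FDC markers differed, with Fcer2a at 211 against 9.99 CPM, Fcgr2b at 241 against 15.4 CPM, Coch at 259 against 58.2 CPM and Sox9 at 331 against 149 CPM. TBRC markers summed to 13656 to 20294 CPM in the Fmod gate against 944 to 10316 CPM elsewhere, and MedRC markers to 1783 to 2498 CPM in the Inmt gate against at most 746 CPM. MRC markers stood at 1645 to 1973 CPM in the Madcam1 gate against at most 1101 CPM. Bst1, the only MRC marker that is not a gate gene, averaged 767 CPM there and 528 CPM in the Cr2 gate. IFRC markers were at 322 to 570 CPM in the Tnfsf11 gate and at 503 to 789 CPM in the Madcam1 gate. The Tnfsf11 gate was thus not set apart by its own list. Most of its IFRC sum was Tnfsf11 itself (395 CPM on average), and Ch25h was at 56.4 CPM there against 144 CPM in the Madcam1 gate. T cell, blood endothelial and lymphatic endothelial lists reached at most 17.3, 24.0 and 35.0 CPM in any sum, and Lyve1 and Mmrn1 were at 0. The filters remove barcodes with Lyve1, Cd3d, Trac, Cldn5, Egfl7 or Ly6c1, so these genes of the lists could only be at 0. Myeloid markers reached at most 184 CPM. Pericyte and smooth muscle markers summed to 1140 to 1349 CPM in the Cr2 gate, 742 to 1325 CPM in the Madcam1 gate, 1204 to 1463 CPM in the Tnfsf11 gate, 1071 to 1209 CPM in the Fmod gate and 621 to 862 CPM in the Inmt gate. The B cell list stood at 507 to 1096 CPM in the Cr2 gate and at 187 to 1151 CPM in the other gates, and Cd79a and Cd79b were at 0 there because the filters remove barcodes with either. The 2-IC libraries shared 76 barcode sequences, 15 of them retained in both, and leaving out all shared barcodes kept every call of a member named below.

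Of the 10 members, 9 passed the filter on low counts and 8 of these differed across the 5 gates (edgeR quasi-likelihood F test with the library as a block, adjusted p under 0.05). The same test called 30.5% of the 6355 genes tested. Sphk1 passed the filter only through the Cr2 and Madcam1 gates, where it was high. The adjusted p was lowest for S1pr3 at 7.81e-10 and Enpp2 at 1.04e-09, and was 0.169 for S1pr2, the tested member that was not called. Sphk2, with 73 UMIs in all gates, did not pass the filter. The gates of a library are parts of 1 cell suspension, and p-values measure the spread over 3 libraries only.

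**Figure D1:**
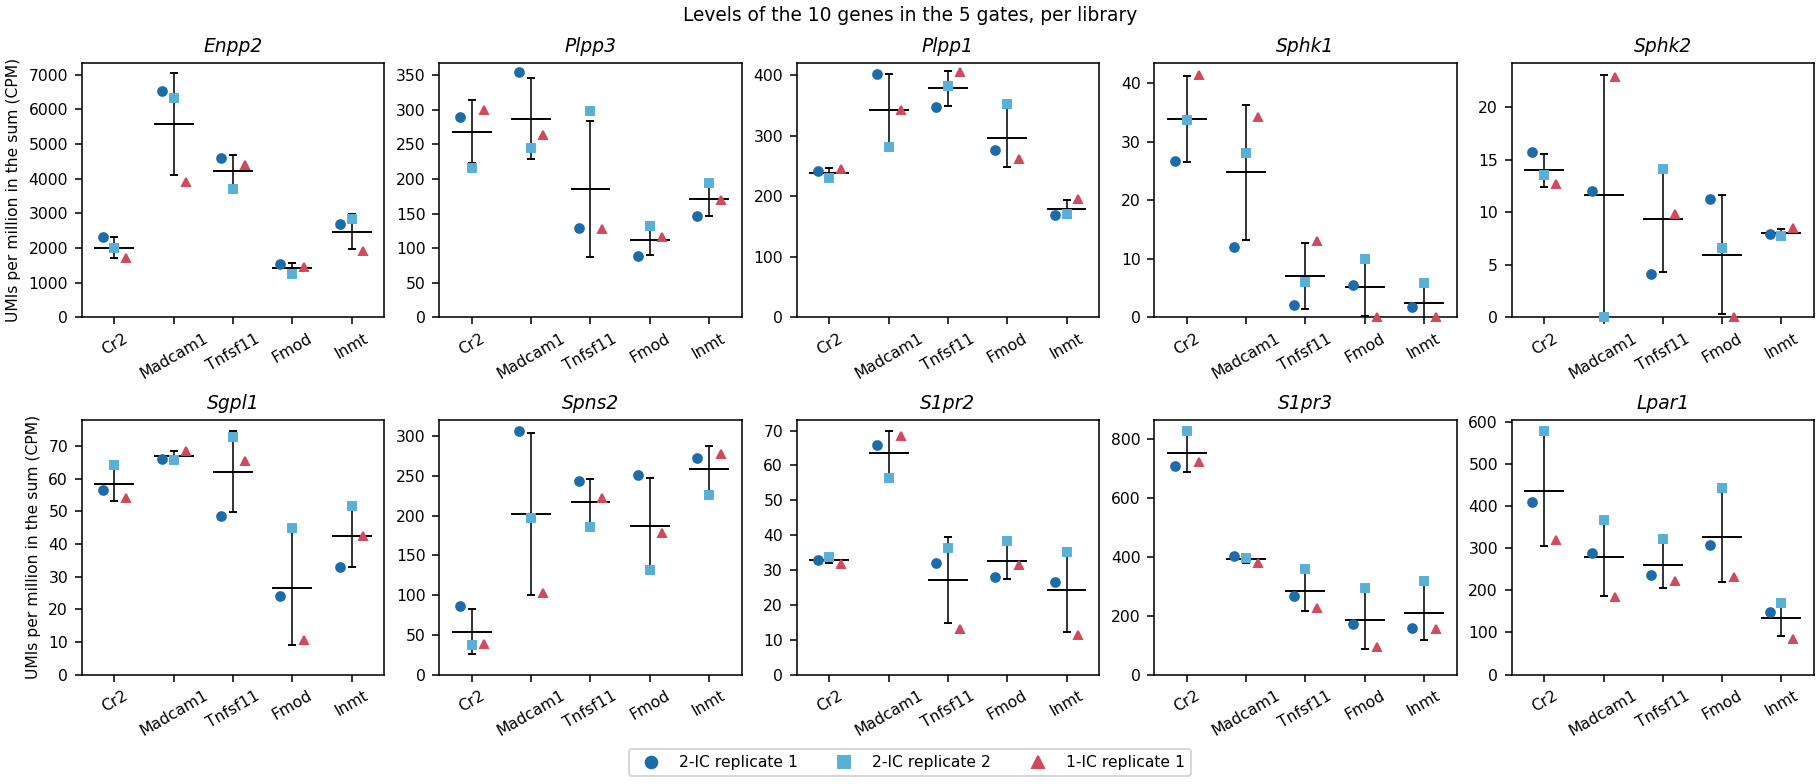
CPM of the 10 members in the 5 gates, 1 panel per gene, with 1 point per library, a line at the mean of the 3 libraries and bars of 1 SD. S1pr3 was highest in the Cr2 gate (750 CPM), Spns2 lowest there (53.9 CPM), and Enpp2 highest in the Madcam1 gate (5578 CPM).

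Enpp2 encodes autotaxin, the secreted enzyme that makes LPA from lysophosphatidylcholine, and lies on GRCm38 at chr15:54838901-54952892 on the minus strand (GENCODE, as all gene positions below). It was highest in the Madcam1 gate, with 6524 CPM in 2-IC replicate 1, 6315 CPM in 2-IC replicate 2 and 3896 CPM in the 1-IC library (values below keep this order of libraries), and next in the Tnfsf11 gate with 4585, 3711 and 4395 CPM. The Inmt gate held 2686, 2827 and 1905 CPM, the Cr2 gate 2319, 1995 and 1713 CPM, and the Fmod gate 1547, 1265 and 1448 CPM. Every library of the Madcam1 and Tnfsf11 gates lay above every library of the other 3 gates. Against the mean of the other 4 gates, Enpp2 was higher by 1.13 ± 0.12 (log2 difference ± SE, edgeR adjusted p = 1.91e-07) in the Madcam1 gate and by 0.73 ± 0.12 (adjusted p = 0.000512) in the Tnfsf11 gate, and the 2 gates were not called different from each other (adjusted p = 0.371).

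In the Fmod gate Enpp2 fell by 1.19 ± 0.14 on the log2 scale (edgeR adjusted p = 6.44e-07) and in the Cr2 gate by 0.55 ± 0.13 (adjusted p = 0.00209). The Cr2 and Inmt gates did not differ by this test (adjusted p = 0.104). Against the Fmod gate alone Enpp2 was higher in the Cr2 gate by 0.51 ± 0.17 (adjusted p = 0.0227). The Madcam1 and Fmod calls of Enpp2 held in all 14 alternative settings. The Cr2 call was lost without 2-IC replicate 1 (adjusted p = 0.0744) and without the library block (0.129), and the Tnfsf11 call without the block (0.267).

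The sphingosine kinases Sphk1 (chr11:116530925-116536674, plus strand) and Sphk2 (chr7:45709467-45718002, minus strand) make S1P from sphingosine. Sphk1 was a low gene, with 76 UMIs in all gates together. It stood at 26.7, 33.8 and 41.4 CPM in the Cr2 gate, from 17, 10 and 13 UMIs. In the Madcam1 gate it stood at 12.0, 28.2 and 34.3 CPM, from only 8 UMIs in all. The Tnfsf11 gate held 2.06, 6.05 and 13.1 CPM, the Fmod gate 5.62, 9.97 and 0 CPM, and the Inmt gate 1.70, 5.84 and 0 CPM. The Cr2 libraries all lay above those of the Tnfsf11, Fmod and Inmt gates and overlapped those of the Madcam1 gate. Sphk1 was higher in the Cr2 gate than in the mean of the other 4 by 2.20 ± 0.43 (log2 difference ± SE, edgeR adjusted p = 0.000208). This call held in all 13 alternatives that gave a value, with no filter on low counts among them. The Cr2 and Madcam1 gates were not called different (adjusted p = 0.686). Sphk1 was lower in the Inmt gate by -1.95 ± 0.56 (adjusted p = 0.0114), but not without 2-IC replicate 1 (0.131) or without the 1-IC library (0.0777). The Inmt gate was not called different from the Tnfsf11 (0.724) or Fmod gate (0.557) alone. As Sphk1 passed the filter on low counts only through gates where it was high, these differences are given as a description. Sphk2 had mean levels from 5.96 CPM in the Fmod gate to 14.0 CPM in the Cr2 gate, too few UMIs for a comparison.

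Plpp3 (chr4:105157347-105232764, plus strand) and Plpp1 (chr13:112800792-112867894, plus strand) encode lipid phosphate phosphatases, membrane enzymes that remove the phosphate of LPA and S1P. Plpp3 stood at 289, 216 and 299 CPM in the Cr2 gate and at 354, 244 and 263 CPM in the Madcam1 gate, and these 2 gates were not called different (adjusted p = 0.997). The Tnfsf11 gate held 130, 298 and 128 CPM, the Inmt gate 147, 194 and 170 CPM, and the Fmod gate 88.5, 131 and 115 CPM. The Fmod libraries all lay below those of the Cr2, Madcam1 and Inmt gates, and the Tnfsf11 gate spanned the range of the others through 2-IC replicate 2. The Tnfsf11 and Inmt gates (adjusted p = 0.991) and the Inmt and Fmod gates (adjusted p = 0.119) were not called different by edgeR.

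Plpp3 was higher in the Cr2 gate by 0.67 ± 0.18 (log2 difference ± SE, edgeR adjusted p = 0.00489) and lower in the Fmod gate by -1.01 ± 0.21 (adjusted p = 0.00148). The Cr2 call was lost without 2-IC replicate 1 (adjusted p = 0.0977), without the 1-IC library (0.0813), without the block (0.0863) and without the contaminant filter, where the difference was 0.05 (0.892). The Fmod call was lost without 2-IC replicate 1 (0.0607) and without the block (0.0568), and without 2-IC replicate 1 Plpp3 was not called across the gates (0.0862).

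Plpp1 showed another order. It stood at 348, 383 and 406 CPM in the Tnfsf11 gate, 402, 282 and 343 CPM in the Madcam1 gate and 277, 352 and 262 CPM in the Fmod gate. The Cr2 gate held 242, 230 and 245 CPM and the Inmt gate 170, 171 and 196 CPM, and every Inmt library lay below every library of the other 4 gates. Plpp1 was lower in the Inmt gate by -0.72 ± 0.13 (log2 difference ± SE, edgeR adjusted p = 0.000132), a call held in all 14 alternatives. Neighbours in the order were not called different, with adjusted p = 0.733 for Madcam1 and Tnfsf11, 0.923 for Madcam1 and Fmod, 0.137 for Cr2 and Fmod and 0.0793 for Cr2 and Inmt. Plpp1 was also higher in the Tnfsf11 gate by 0.49 ± 0.12 (adjusted p = 0.0215), which was lost without any 1 of the libraries (0.188, 0.0973 and 0.211) and held in 6 of 14 alternatives. Without the block Plpp1 was not called across the gates (0.0656).

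Sgpl1 (chr10:61098642-61147703, minus strand) encodes the S1P lyase, which cleaves S1P irreversibly inside the cell. Its mean level was 66.8 ± 1.55 CPM in the Madcam1 gate, 62.1 ± 12.4 CPM in the Tnfsf11 gate, 58.3 ± 5.30 CPM in the Cr2 gate, 42.3 ± 9.37 CPM in the Inmt gate and 26.4 ± 17.3 CPM in the Fmod gate. The Fmod libraries stood at 23.9, 44.9 and 10.5 CPM, the last from 1 UMI, and all lay below those of the Cr2, Madcam1 and Tnfsf11 gates. Sgpl1 was lower in the Fmod gate by -0.81 ± 0.23 (log2 difference ± SE, edgeR adjusted p = 0.0233). The call held in 6 of 13 alternatives and was lost without 2-IC replicate 1 (0.288) or the 1-IC library (0.119), and the test across gates (adjusted p = 0.0321) was lost without any 1 of the libraries (0.454, 0.0660 and 0.180).

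Spns2 (chr11:72451638-72489904, minus strand) encodes a transporter that carries S1P out of the cell. It was lowest in the Cr2 gate, at 86.4, 37.2 and 38.2 CPM, and every one of these values lay below every library of the other 4 gates. The Madcam1 gate held 306, 197 and 103 CPM, the Tnfsf11 gate 243, 185 and 223 CPM, the Fmod gate 252, 131 and 178 CPM and the Inmt gate 273, 226 and 278 CPM. Spns2 was lower in the Cr2 gate by -1.91 ± 0.22 (log2 difference ± SE, edgeR adjusted p = 7.05e-08), and the Cr2 gate was also below the Fmod gate, the next in order of mean level (adjusted p = 6.41e-06, with 12.9% of genes called lower). In the Inmt gate Spns2 was higher by 0.91 ± 0.16 (adjusted p = 5.93e-05). Both calls against the other 4 gates held in all 14 alternatives. The Inmt gate was not called different from the Tnfsf11 (adjusted p = 0.309), Madcam1 (0.223) or Fmod gate (0.171) alone. The mean of the other 4 gates, against which it was called, includes the low Cr2 gate. The Madcam1 and Tnfsf11 (0.896) and the Madcam1 and Fmod (0.955) gates were not called different either.

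S1pr3 (chr13:51408639-51422797, plus strand) encodes an S1P receptor. It stood at 707, 825 and 719 CPM in the Cr2 gate, above 402, 395 and 377 CPM in the Madcam1 gate, 268, 359 and 226 CPM in the Tnfsf11 gate, 170, 294 and 94.5 CPM in the Fmod gate and 156, 317 and 156 CPM in the Inmt gate. The lowest Cr2 library was above the highest library of every other gate, and in each gate but the Madcam1 gate 2-IC replicate 2 was the highest library. S1pr3 was higher in the Cr2 gate than in the mean of the other 4 by 1.59 ± 0.13 (log2 difference ± SE, edgeR adjusted p = 1.22e-10), between 0.92 and 1.73 in all settings and called in all 14 alternatives. It was above the Madcam1 gate alone by 1.06 ± 0.20 (adjusted p = 0.000713, with 3.48% of genes called higher), which was lost without the contaminant filter (0.181) and without the block (0.133).

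The Madcam1 and Tnfsf11 gates (adjusted p = 0.349), the Tnfsf11 and Inmt gates (0.280) and the Fmod and Inmt gates (0.902) were not called different for S1pr3 by edgeR. S1pr3 was lower in the Fmod gate by -0.85 ± 0.16 (log2 difference ± SE, adjusted p = 0.000639) and in the Inmt gate by -0.73 ± 0.15 (adjusted p = 0.000511). The Fmod call was lost without the block (0.115), and the Inmt call without the block (0.150) and without 2-IC replicate 1 (0.109).

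Lpar1 (chr4:58435255-58553898, minus strand) encodes a receptor for LPA. The Cr2 gate held 410, 578 and 318 CPM and the Fmod gate 306, 442 and 231 CPM, and these 2 gates were not called different (edgeR adjusted p = 0.0684). The Madcam1 gate held 288, 367 and 183 CPM, the Tnfsf11 gate 236, 322 and 223 CPM, and the Inmt gate 147, 169 and 85.1 CPM. All Inmt values lay below all values of the other gates, while the libraries of the other 4 gates overlapped. Lpar1 was lower in the Inmt gate by -1.13 ± 0.14 (log2 difference ± SE, adjusted p = 3.22e-07, held in all 14 alternatives) and lower there than in the Tnfsf11 gate (adjusted p = 0.00147, with 2.97% of genes called in that direction) in 11 of 14 alternatives, but not without the block (0.374). Madcam1 did not differ from Fmod (adjusted p = 0.353) or Tnfsf11 (0.934) by this test. Lpar1 was higher in the Cr2 gate by 0.90 ± 0.13 (adjusted p = 1.87e-06). Without the contaminant filter this difference was 0.04 (0.867), and the Cr2 gate then held 609 barcodes whose B cell markers summed to 11564 to 13659 CPM, against 324 to 3347 CPM in the other gates.

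S1pr2 (chr9:20962361-20976781, minus strand) encodes an S1P receptor that on germinal centre B cells holds the cells in the follicle. It was highest in the Madcam1 gate of each library, at 66.0, 56.4 and 68.5 CPM from 11, 6 and 6 UMIs, above every library of the other gates, whose means ran from 24.3 ± 12.0 CPM in the Inmt gate to 32.9 ± 0.996 CPM in the Cr2 gate. The difference between the Madcam1 gate and the other 4 was 0.99 on the log2 scale and was not called (edgeR adjusted p = 0.103). Against the Inmt gate alone S1pr2 was higher in the Madcam1 gate by 1.12 (adjusted p = 0.0435, with 6.72% of genes called higher), a call lost without any 1 of the libraries (0.305, 0.0590 and 0.279).

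Gate by gate, the Cr2 gate had 6 of the 9 tested members called against the other 4 gates, where 25.5% of all tested genes were called. S1pr3, Sphk1, Lpar1 and Plpp3 were higher (13.6% of genes were called higher) and Spns2 and Enpp2 lower (11.9% lower). For Enpp2 the Cr2 gate was above the Fmod gate alone and was not called different from the Inmt gate alone. The mean of the other 4 gates includes the Madcam1 and Tnfsf11 gates, where Enpp2 was high. Sphk1 is counted here and below although it passed the filter on low counts only through gates where it was high. The Inmt gate had 5 members called (21.3% of genes), of which Spns2 was higher (12.5% of genes) and Lpar1, Plpp1, S1pr3 and Sphk1 were lower (8.83%). For Spns2 the Inmt gate was not called different from the Madcam1, Tnfsf11 or Fmod gate alone. For S1pr3 and Sphk1 it was not called different from the Tnfsf11 or Fmod gate alone, and for Plpp1 not from the Cr2 gate alone. The mean of the other 4 gates includes the Cr2 gate, where S1pr3 and Sphk1 were high. The pericyte and smooth muscle list (621 to 862 CPM in the Inmt gate) was also lowest there in 2-IC replicate 1 and the 1-IC library. In 2-IC replicate 2 the Madcam1 gate was lower, at 742 against 862 CPM. The part of this list in these differences was not tested. In the Fmod gate 4 members were called, all lower (10.2% of genes called, 3.41% lower). The Tnfsf11 gate had 2 members called higher (3.19% of genes called, 2.38% higher) and the Madcam1 gate 1, Enpp2 (5.68% called, 3.05% higher). The median absolute log2 difference of the 9 tested members from the other gates was 0.67 in the Cr2 gate against 0.34 over all tested genes. It was 0.72 against 0.27 in the Inmt gate and 0.51 against 0.25 in the Fmod gate. In the Madcam1 gate it was 0.43 against 0.32, and in the Tnfsf11 gate 0.37 against 0.19. These medians include Sphk1, and the list was chosen with earlier results of these data known, so they are a description.

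**Figure D2:**
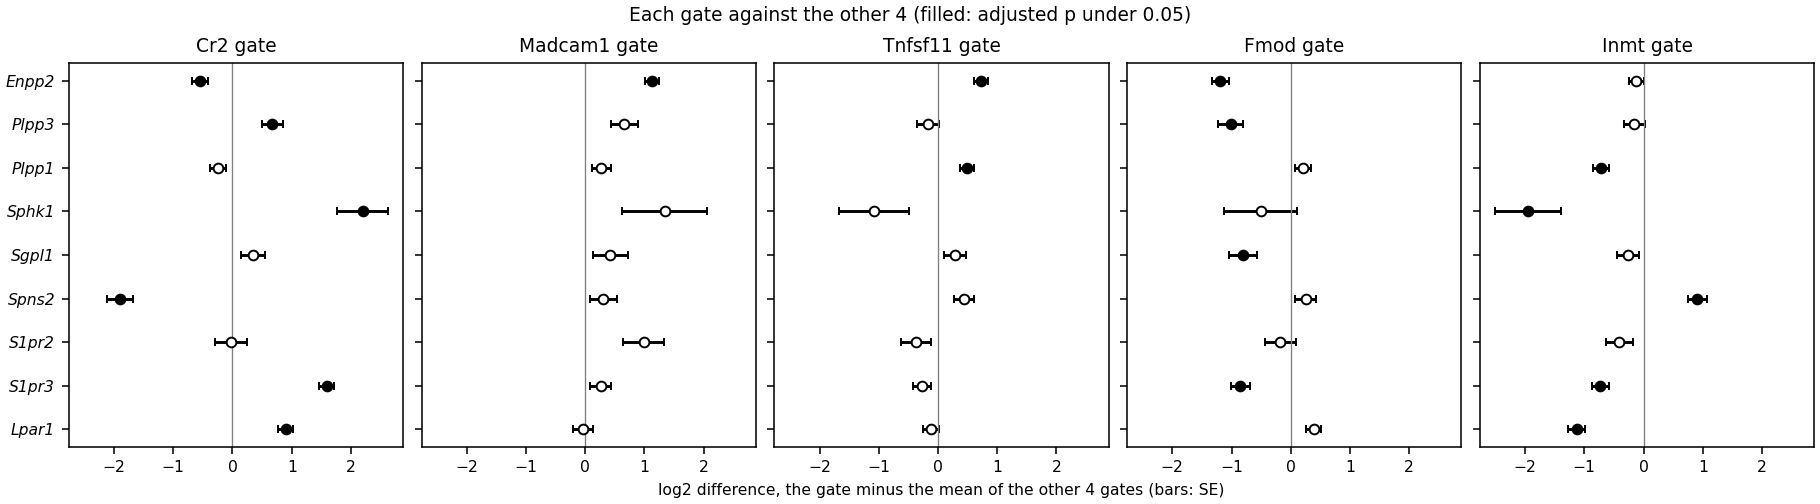
Log2 difference of each tested member in each gate from the mean of the other 4 gates (edgeR), with SE bars, filled where the adjusted p was under 0.05. Sphk1 (2.20) and S1pr3 (1.59) lie to the higher side in the Cr2 gate, where Spns2 (-1.91) lies to the lower side. Sphk1 passed the filter on low counts only through gates where it was high.

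The start regions of S1pr3, the member called higher in the Cr2 gate with the lowest adjusted p, of Plpp3, also called higher there, and of Spns2, called lower there, are shown as the 300 bases from 250 before to 50 after the RefSeq start (GRCm38.p6), written along the gene's strand. RefSeq had such an entry for 8 members, and Enpp2 and Plpp1 had none. The regions are chr13:51408368-51408667 (plus strand) for S1pr3, chr4:105157097-105157396 (plus strand) for Plpp3 and chr11:72474978-72475277 (minus strand) for Spns2, whose RefSeq start lies inside the gene as GENCODE annotates it. Capitals mark GGGCGG or its reverse complement CCGCCC, the GC box bound by Sp1-type factors.
S1pr3: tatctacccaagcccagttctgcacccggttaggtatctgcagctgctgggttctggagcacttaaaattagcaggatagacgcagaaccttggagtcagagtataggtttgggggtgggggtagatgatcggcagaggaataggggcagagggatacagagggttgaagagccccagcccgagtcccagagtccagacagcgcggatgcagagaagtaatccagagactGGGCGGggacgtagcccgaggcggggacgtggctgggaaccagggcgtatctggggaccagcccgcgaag
Plpp3: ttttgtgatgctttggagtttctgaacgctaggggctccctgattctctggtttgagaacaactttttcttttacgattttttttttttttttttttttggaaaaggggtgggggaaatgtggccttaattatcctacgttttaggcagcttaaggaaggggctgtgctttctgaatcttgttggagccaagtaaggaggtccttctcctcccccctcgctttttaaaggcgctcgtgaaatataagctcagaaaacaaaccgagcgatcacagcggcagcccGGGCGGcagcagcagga
Spns2: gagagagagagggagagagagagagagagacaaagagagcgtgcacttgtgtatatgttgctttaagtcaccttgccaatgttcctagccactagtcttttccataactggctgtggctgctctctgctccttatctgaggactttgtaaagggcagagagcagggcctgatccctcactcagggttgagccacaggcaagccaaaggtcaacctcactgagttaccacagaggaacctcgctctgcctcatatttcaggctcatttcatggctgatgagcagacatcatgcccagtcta
The GC box was found 1 time each in the S1pr3 and Plpp3 regions and 0 times in the Spns2 region, which held CCAAT 1 time. Sphk1, also called higher in the Cr2 gate, held it 0 times in each of its 5 entries, and Lpar1, higher there too, lacked it in 1 of 3 entries. On either strand GGGCGG occurs in 35.7% and CCAAT in 37.4% of 32841 RefSeq promoters of this length. TATAAA, in 13.6% of them, was in none of these 3 regions. These letters are a description of the windows and say nothing of which factor binds there.

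The listed genes of the same pathways, beside the members, numbered 46, of which 20 passed the filter on low counts and 5 were called across the gates, S1pr1, Lpar3, Lpar4, Sgpp1 and Cers4 (30.5% of all tested genes were called). Lpar3 passed the filter only through the Cr2 gate, where it was high, and Lpar4 only through the Inmt and Fmod gates, where it was highest. Cers4 passed it only through the Cr2, Madcam1 and Fmod gates, where it was high. In the Cr2 gate against the others 4 of the 20 were called higher and 3 lower, beside 13.6% and 11.9% of all tested genes. Of the 3 listed S1P receptors 1 was tested, and of the 5 LPA receptors 2. Of the tested genes of LPA turnover 0 of 2, of lipid phosphatases 1 of 2 and of ceramide supply 1 of 6 were called across the gates, and neither of the 2 genes of S1P export and carriage passed the filter.

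Lpar3, another LPA receptor, had 37, 14 and 26 UMIs in the Cr2 gate, or 58.1, 47.3 and 82.8 CPM. The other 4 gates together held 3, 0 and 0 UMIs, of which the Madcam1 gate had 2 and the Inmt gate 1. The ratio of the Cr2 gate to the sum of the others was 70.0 in 2-IC replicate 1 (95% counting interval 22.2 to 355). With the 0 counts taken as 3 UMIs for the 4 gates of a library, Lpar3 was 35.2-fold higher in 2-IC replicate 2 and 23.2-fold higher in the 1-IC library. These 2 values leave out the counting error of the Cr2 gate. With its low counts outside the Cr2 gate these values are given as a description, and DESeq2 did not call Lpar3 in that gate (adjusted p = 0.157). B cell barcodes held 1 UMI of Lpar3 in all.

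S1pr1, the S1P receptor that directs lymphocytes out of the LN, was at 60.2 ± 18.2 CPM in the Cr2 gate, 40.4 ± 16.8 CPM in the Madcam1 gate, 30.1 ± 3.41 CPM in the Tnfsf11 gate, 29.3 ± 1.63 CPM in the Inmt gate and 9.72 ± 2.40 CPM in the Fmod gate. It was higher in the Cr2 gate by 1.33 (log2, edgeR adjusted p = 7.87e-05) and lower in the Fmod gate by -2.05 (adjusted p = 0.000113). B cell barcodes of the unfiltered files carried S1pr1 at 167 CPM, and the part of B cell RNA in its level in the Cr2 gate was not tested. Lpar4 went the other way from Lpar3, with 2, 0 and 0 UMIs in the Cr2 gate and 41.9 ± 11.8 CPM in the Inmt gate, where it was higher (edgeR adjusted p = 4.19e-07). As Lpar4 passed the filter on low counts only through gates where it was highest, this difference is given as a description. Sgpp1, a phosphatase that dephosphorylates S1P in the endoplasmic reticulum, stood at 55.5 ± 1.65 CPM in the Cr2 gate and at most at 39.3 CPM in any other sum, a log2 difference of 0.99 (adjusted p = 0.00348).

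Cers4, a ceramide synthase, was called across the gates (edgeR adjusted p = 0.0194), with means between 11.0 CPM in the Tnfsf11 gate and 33.0 CPM in the Fmod gate. As Cers4 passed the filter on low counts only through gates where it was high, this call is given as a description. Sptlc2 and Degs1, enzymes of ceramide synthesis, were lower in the Cr2 gate by -0.82 (adjusted p = 0.0255) and -0.65 (0.0164), and Gnaq, a G protein subunit, was higher by 0.56 (0.0155). Sptlc2 and Degs1 held in 6 of 13 alternatives and were lost without any 1 of the libraries (0.159, 0.0912 and 0.109 for Sptlc2, 0.0854, 0.0834 and 0.0982 for Degs1). Gnaq was lost without 2-IC replicate 1 (0.125) or 2-IC replicate 2 (0.149), and without the contaminant filter its difference was -0.076 (0.716).

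**Figure D3:**
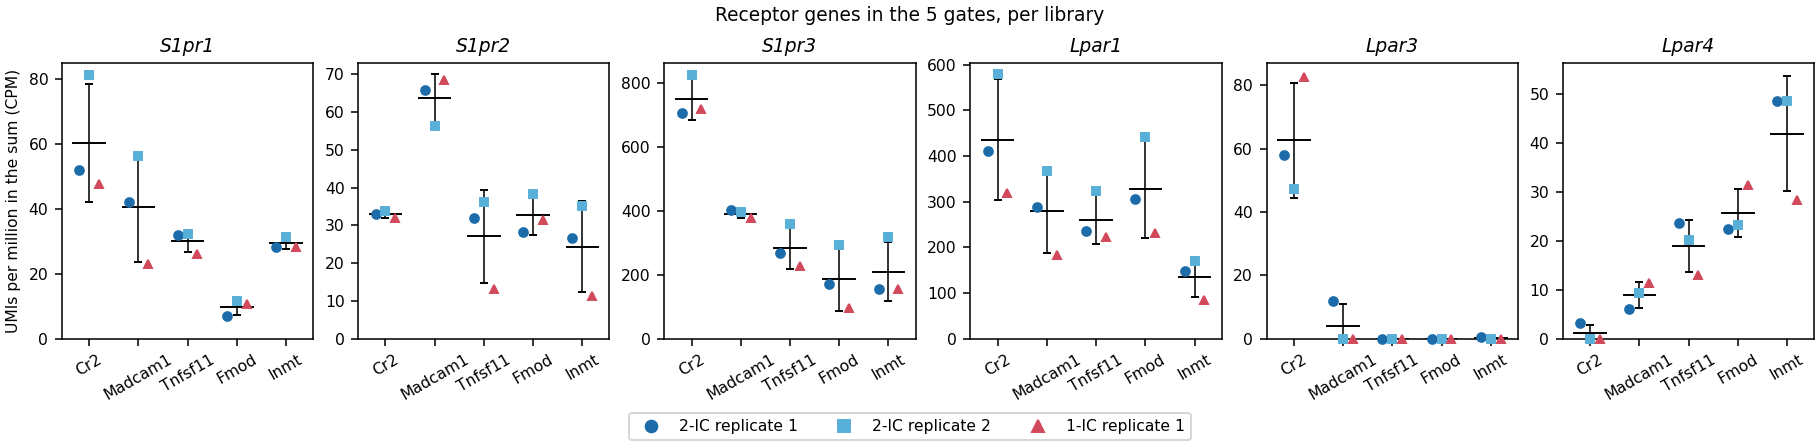
CPM of receptors of S1P (S1pr1, S1pr2, S1pr3) and LPA (Lpar1, Lpar3, Lpar4) in the 5 gates, with 1 point per library, a line at the mean and bars of 1 SD. Lpar3 was at 47.3 to 82.8 CPM in the Cr2 gate and at most 12.0 CPM in the others, and Lpar4 at 41.9 CPM in the Inmt gate.

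The share of barcodes with at least 1 UMI of a member was counted after each barcode was thinned to 2000 UMIs, leaving out 32, 0, 21, 5 and 24 shallower barcodes of the Cr2, Madcam1, Tnfsf11, Fmod and Inmt gates. S1pr3 was found in 59.5%, 52.4%, 36.6%, 30.2% and 28.6% of barcodes of these gates, and in 2.51% of 319 thinned B cell barcodes. The intervals of the Cr2 and Madcam1 gates overlapped for S1pr3. Spns2 was found in 10.1%, 23.8%, 35.6%, 38.8% and 43.2% (B cells 2.19%), and Lpar1 in 47.5%, 38.1%, 30.1%, 48.2% and 20.8% (B cells 0.940%). Enpp2 was in 87.1% to 97.6% of barcodes of every gate against 10.7% of B cell barcodes. Sphk1 was in 6.33% of the Cr2 gate and 0.443% of the Inmt gate (B cells 0.313%), and Sphk2 in 0.719% to 7.14%, with the Fmod gate under the B cell share of 1.57%. Plpp3 was in 44.3% and 42.9% of the Cr2 and Madcam1 gates and in 16.5% to 24.6% of the others, and Plpp1 in 57.1% of the Madcam1 gate and 26.8% of the Inmt gate. Sgpl1 was in 4.76% to 10.8% of barcodes (B cells 3.76%) and S1pr2 in 3.80% to 11.9% (B cells 0.940%). Without thinning the B cell share of Enpp2 was 18.2%, that of S1pr3 4.35%, and the median depth 3317.5 UMIs in B cell barcodes against 5243.5 to 7498.5 (the Cr2 and Fmod gates, unthinned).

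**Figure D4:**
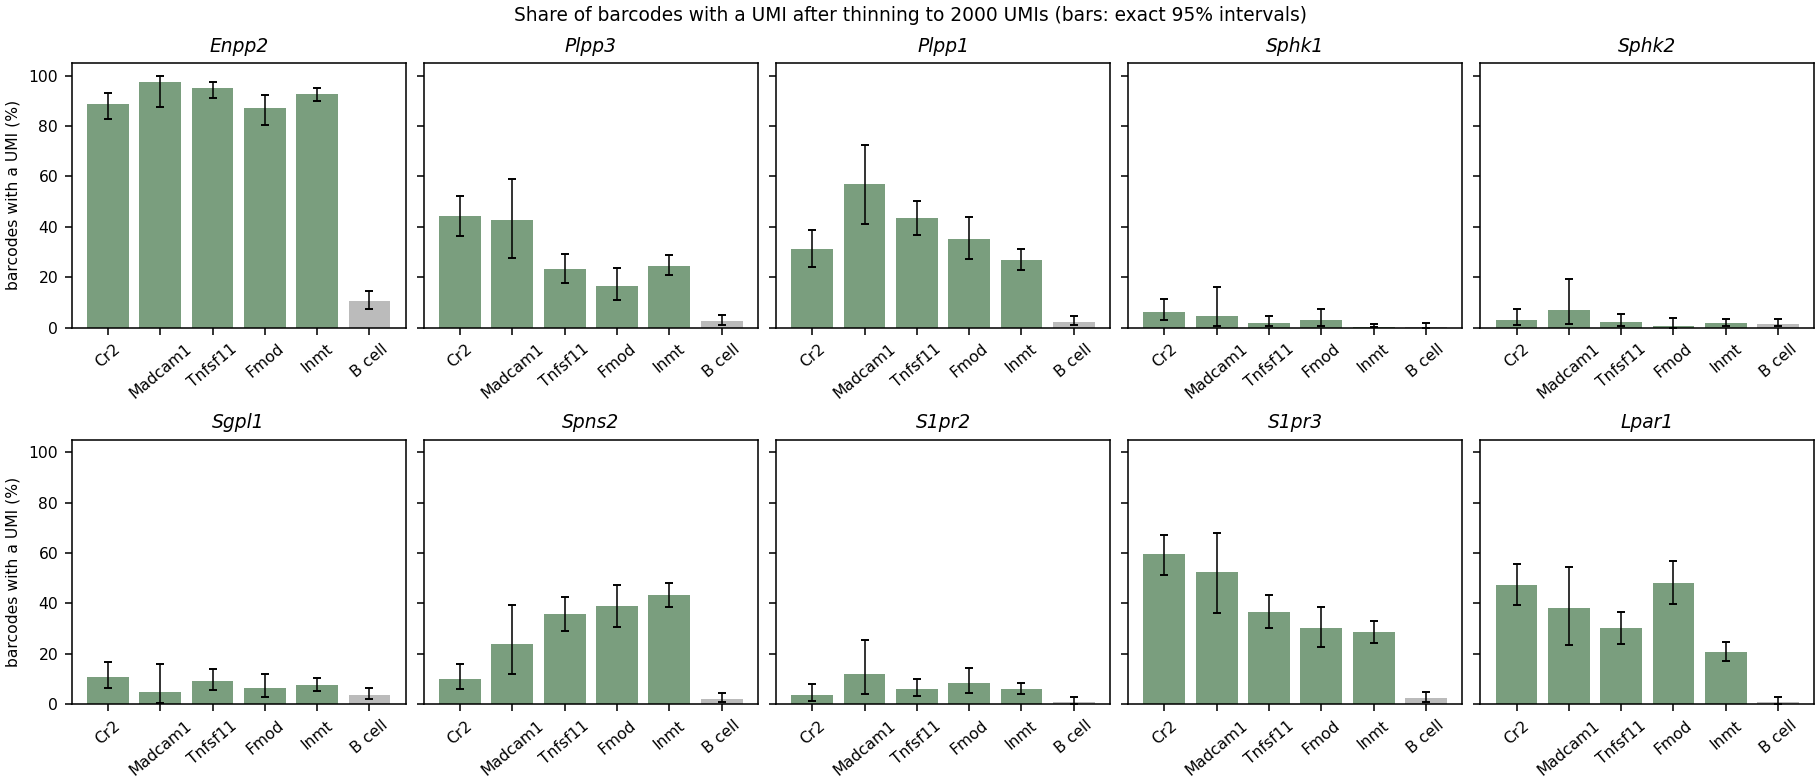
Percent of barcodes with at least 1 UMI of each member after thinning to 2000 UMIs, pooled over libraries, with exact binomial 95% intervals that cover counting error only. S1pr3 falls from 59.5% in the Cr2 gate to 28.6% in the Inmt gate while Spns2 goes from 10.1% to 43.2%, and B cell barcodes lie at the low end.

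Within the Cr2 gate, 55 barcodes had less than 0.5% of their UMIs in Malat1, a nuclear RNA, and 135 had more. The low-Malat1 barcodes numbered 27, 10 and 18 in the 3 libraries. Of 6 members tested between these classes 3 were called, all lower in the low-Malat1 barcodes (24.3% of 2594 genes were called, 14.7% lower). The test of this split had 2 residual degrees of freedom. Enpp2 stood at 1105, 1296 and 981 CPM in the low-Malat1 class against 2546, 2177 and 1868 CPM in the rest and fell by 1.13 ± 0.17 on the log2 scale (edgeR adjusted p = 0.00236). S1pr3 stood at 368, 377 and 454 CPM against 770, 941 and 776 CPM (log2 -1.21 ± 0.24, adjusted p = 0.00612), and Plpp1 at 139, 164 and 90.9 CPM against 261, 247 and 278 CPM (-1.13 ± 0.32, 0.0287). The low-Malat1 values of Plpp1 rested on 14, 10 and 5 UMIs. Its counting intervals for the classes overlapped in 2-IC replicate 1 and 2-IC replicate 2 but not in the 1-IC library. The differences of Plpp3 (-0.62, 0.155), Lpar1 (-0.48, 0.186) and Sgpl1 (0.03, 0.976) were not called.

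In the low-Malat1 class the median depth was 3260, 5774 and 3207 UMIs against 5274, 12877 and 8410 in the rest. B cell markers summed to 837 to 3563 CPM against 422 to 729 CPM, myeloid markers to 65.6 to 691 CPM against 38.6 to 80.9 CPM, and FDC markers to 27523 to 31805 CPM against 14493 to 26567 CPM. Pericyte and smooth muscle markers summed to 1682 to 2542 CPM against 1019 to 1178 CPM, TBRC markers to 236 to 398 CPM against 1046 to 1977 CPM, and IFRC markers were at 0 against 55.4 to 96.5 CPM. Their part in the member differences was not tested. With Malat1 cut at 2% (397 of 3086 genes called), or without the contaminant filter (527 of 5543), 0 members were called. The Plpp1 call held in 5 of 11 alternatives. It was also lost with DESeq2, without the filter on low counts, without the block and without the 1-IC library (edgeR adjusted p = 0.160).

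**Figure D5:**
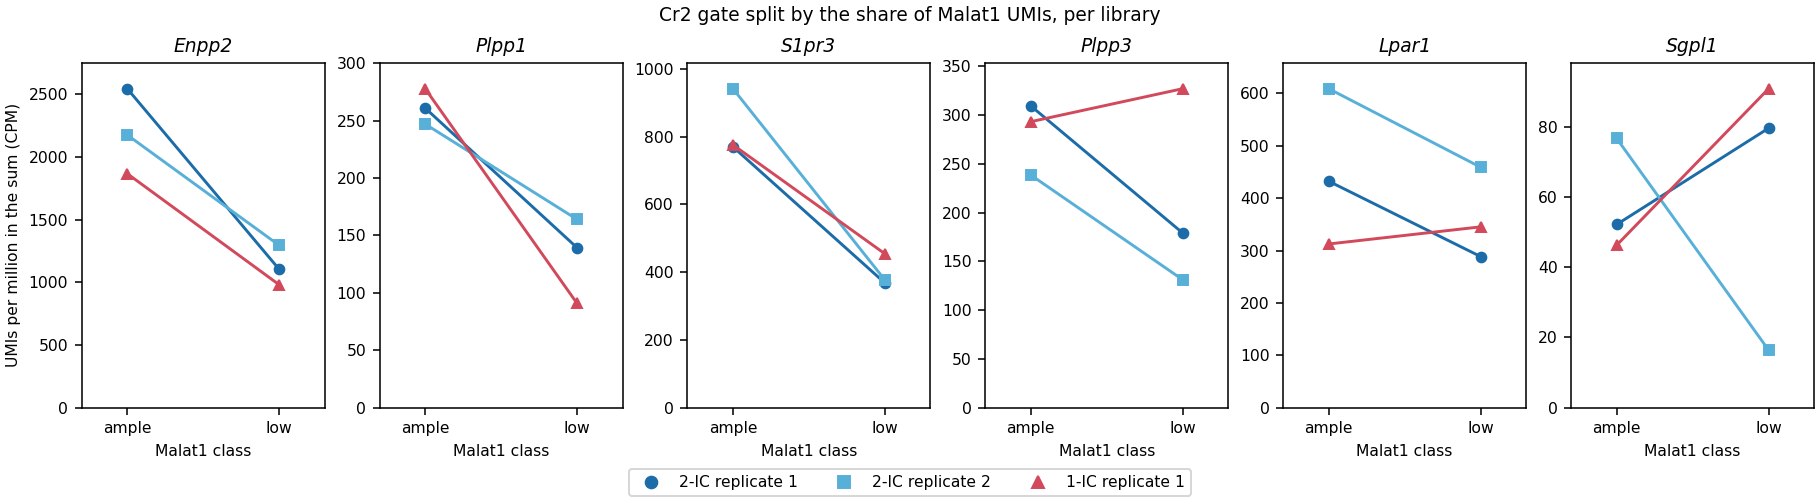
CPM of the members tested in the Cr2 gate, in barcodes with under 0.5% and at least 0.5% of UMIs in Malat1, with a line joining the values of each library. S1pr3 was at 368 to 454 CPM in the low-Malat1 class and at 770 to 941 CPM in the rest.

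The 1-IC condition had 1 library, so its members were set beside those of the 2-IC libraries without a test. Over all retained barcodes S1pr3 stood at 238 and 355 CPM in the 2-IC libraries and 259 CPM in the 1-IC library, Enpp2 at 3035 and 2893 CPM against 2621 CPM, and Lpar1 at 229 and 271 CPM against 225 CPM. The ratio of the 1-IC level to the 2-IC mean ran from 0.598 for S1pr2 to 1.57 for Sphk1. No member of at least 50 CPM was 2-fold or more from both 2-IC libraries, over all retained barcodes (1.42% of 3517 genes were) or within the Cr2 (5.04%), Madcam1 (20.0%), Tnfsf11 (4.42%), Fmod (14.9%) or Inmt gate (3.85%). With 1 library a difference between the conditions cannot be told apart from one between libraries.

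Retained barcodes outside the gates carried the members too. The 528 barcodes that passed several gates, mostly Inmt with Tnfsf11, had mean levels of 3514 CPM of Enpp2, 269 CPM of Spns2 and 215 CPM of S1pr3, and the 627 that passed none had 1921, 178 and 250 CPM. The latter had a median of 2996 UMIs against 8604 in the former. Both S1pr3 means were below the lowest library of the Cr2 gate (707 CPM).

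Across the 15 sums of library and gate, centred within library, S1pr3 was correlated with Sphk1 (Pearson r = 0.873) and with Plpp3 (0.727) and ran against Spns2 (-0.829), and Spns2 ran against Sphk1 (-0.751) and Lpar1 (-0.742). Values of a library share a suspension and depth, so these are descriptions over 15 related sums. Those of Sphk1 rest on 76 UMIs, and it passed the filter on low counts only through gates where it was high. By the same measure, the genes most like S1pr3 were Ndufc2 (0.970), 6720464F23Rik (0.953) and Coch (0.948), and those most like Spns2 were Selenop (0.965), Ildr2 (0.957) and Vegfa (0.956). Those most like Enpp2 were Fgfr2 (0.935), Rspo3 (0.919) and Cdk8 (0.890), and those most like Lpar1 were Aldh3a1 (0.910), Pdlim3 (0.901) and Srgn (0.876). Plpp3 was most like Cnot6l (0.894), Plpp1 like Serpina3g (0.893) and Sgpl1 like Arl5a (0.941).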

How the data were processed

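The authors sorted the cells, aligned the reads to GRCm38 (Ensembl release 89) and counted UMIs with Cell Ranger (version 5.0.0 per the file headers). The deposited counts are raw UMI counts per gene and barcode. The 3' reads are counted by strand and, in GENCODE, no gene on the same strand shares exon bases with a member.

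Barcodes with at least 200 genes, at most 10% mitochondrial UMIs and no UMI of the study's 13 contaminant genes were kept. No doublet caller was run, and barcodes of several gates were left out, except that the Cr2 gate took barcodes whatever their Madcam1 and Tnfsf11 and the Madcam1 gate whatever their Tnfsf11. Counts were summed per library and gate (15 sums) and tested with edgeR 4.0.16 in R 4.3.3 (TMM, filterByExpr, quasi-likelihood, library as a block, 8 residual degrees of freedom, Benjamini-Hochberg adjusted p under 0.05 over all genes tested). The library is the block because its gates come from 1 suspension, and replicate numbers pair nothing. Alternatives were library size alone, DESeq2 1.42.0, no filter on low counts, no contaminant filter, other UMI limits and gate assignment, thinning to 2000 UMIs, low-Malat1 barcodes left out, no block and each library left out, and, chosen after the data were seen, shared barcodes left out. Procedures were tested on simulated data. Intervals are 95% and cover counting error only.

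The members and lists were chosen with earlier results of these data known. The text names the members, those of 46 listed pathway genes called across the gates, the 3 genes most correlated with a called member of at least 50 CPM (log2 CPM, prior count 2) and, chosen after their values were seen, Sptlc2, Degs1 and Gnaq. Every sum tested held at least 5 barcodes. The count of 1 further group of the listed pathway genes is not reported here.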

Additional observations from a re-analysis of the deposited data

Results flagged for a closer look

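Enpp2 stood at 365 CPM in 8 unfiltered barcodes with endothelial genes and no Col1a2, Col3a1 or Dcn, cells that the comparisons leave out, from 14 UMIs and above the 66.9 CPM of 368 B cell barcodes. In the same 8 barcodes Plpp3 was at 104 CPM from 4 UMIs, Plpp1 at 130 CPM from 5 UMIs and Lpar1 at 104 CPM from 4 UMIs, each with a 95% counting interval above that of the B cell barcodes. These barcodes also held 33 UMIs of Prox1 and 38 of Lyve1.

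Of 20 gate differences of 4 members with at least 10 UMIs in every sum, 3 went one way in the 1-IC library and the opposite way in both 2-IC libraries, a difference that was not tested. Plpp1 in the Fmod gate stood at -0.12 from the mean of the other 4 gates on the log2 scale in the 1-IC library and at 0.0078 and 0.46 in the 2-IC libraries. Lpar1 stood at -0.079 in the Madcam1 gate (0.16 and 0.09 in the 2-IC libraries) and at 0.28 in the Tnfsf11 gate (-0.20 and -0.14). No group had the 4 to 10 samples needed to look for a sample far from the others.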

How the results depend on the processing

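The 18 called differences of members between a gate and the other 4 kept their direction in every alternative that gave a value, and 219 of 249 values kept the call. Tests of members across the gates kept their side of the threshold in 112 of 123. Of 19 pairs of gates named as not different, 10 had the other sign and 5 were called in at least 1 alternative. The Spns2 pairs of the Inmt gate with the Madcam1 and Fmod gates were not among these 19. Nor were the Sphk1 pairs of the Inmt gate with the Tnfsf11 and Fmod gates. Without the library as a block, members called in the Tnfsf11 gate went from 2 to 0 and in the Fmod gate from 4 to 1, and genes called across the gates from 1937 to 1026 of 6355. That number was 3883 of 10311 tested without the contaminant filter, 641 of 1622 after thinning to 2000 UMIs, and 1151 to 1860 with 1 library left out (1151 without 2-IC replicate 1). Members called in the Madcam1 gate were 2 with library size alone and 1 to 2 with 1 library left out. In the Tnfsf11 gate they were 1 without the contaminant filter, thinned, or without low-Malat1 barcodes, and 1 to 2 with 1 library left out. With 1 library left out they were 2 to 4 in the Fmod gate and 3 to 5 in the Inmt gate, lowest in both without 2-IC replicate 1. These member counts per gate stand without the share of all genes called in the same gate and setting. They therefore do not set the members apart from other genes.

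For the Malat1 split, 631 of 2594 genes were called, against 397 of 3086 at a 2% share and 176 of 537 thinned. Of the same 2594 genes, 230 were called with DESeq2 and 294 without the block. With 1 library left out the number ran from 302 of 2797 (without the 1-IC library) to 580 of 2823. Members called were 3 of 6 tested, 0 of 6 at 2% and 0 of 8 without the contaminant filter (527 of 5543 genes). Sgpl1, not called there, turned from 0.03 to -0.00014 (no contaminant filter), -0.13 (DESeq2), -0.0052 (no block), and, with 1 library left out, -0.46 to 0.66 (below 0 without 2-IC replicate 1 or, at -0.29, the 1-IC library), and Lpar1 to 0.12 without the contaminant filter. Gnaq in the Cr2 gate turned to -0.076 without that filter. Members 2-fold from both 2-IC libraries, 0 in each gate, became 2 (Madcam1), 1 (Tnfsf11), 5 (Fmod) and 1 (Inmt) after thinning, which leaves few UMIs per sum. Of all genes compared after thinning, 43.5%, 18.2%, 39.3% and 11.9% were 2-fold away in these gates. The causes were not tested. Shares of barcodes with a UMI moved past their counting interval in 44 of 50 values after thinning and in 9 of 50 without the contaminant filter. Thinning left none of the 8 named pathway genes past the filter on low counts. Few UMIs limit Sphk1, Sphk2 and S1pr2, and the Madcam1 gate is limited by its 42 barcodes. The block is the library, and no pairing by replicate number was made.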
